A study of Caenorhabditis elegans with 4 samples.

Results

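Chromosome II of Caenorhabditis elegans carried 297 of the 2103 DPY-30 peaks in the series-level peak list, and these 297 are described here by position, width, score and presence in each replicate. They were taken by chromosome name alone. Of the 2101 peaks on the 6 nuclear chromosomes they made up 14.1%. The peaks came from ChIP-seq, the sequencing of DNA recovered with an antibody from cross-linked chromatin, here a polyclonal antibody against DPY-30 raised in rabbit and affinity-purified. All samples were wild-type N2 embryos of mixed stages and both sexes, from worms kept at 20 °C and fixed for 30 min in 2% formaldehyde. The samples were 2 input libraries, not analysed here, and 2 DPY-30 ChIP libraries, numbered replicate 1 and replicate 2. N2 is the standard laboratory strain, and no mutant, treated or depleted group was part of the design, so the comparisons are between chromosomes, between stretches of II and between lists.

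DPY-30 is a small protein shared by more than one chromatin complex. In COMPASS-type complexes it assists the methylation of lysine 4 on histone H3, a mark of active promoters found on every chromosome. In the worm it is also needed by the dosage compensation complex, which gathers on both X chromosomes of a hermaphrodite to reduce transcription there. Chromosome II is an autosome and no target of that complex's chromosome-wide binding.

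The deposited lists give each peak a start, an end and a score. The score is the authors' own value, the sources used here do not say what it measures, and it serves only to rank and describe peaks within a list. The replicate 1 list held 882 peaks, 114 of them on II, and the replicate 2 list held 817, of which 122 were on II. The share on II was 12.9% in replicate 1 and 14.9% in replicate 2, with a mean of 13.9% ± 1.42 (SD, n = 2). Read depth is not given in the sources used here, so the numbers of peaks in different lists are not compared as amounts of binding. The labels do not state that the replicates were separate cultures, so the spread between them may be technical.

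The peaks on II were mostly short and low in score. Widths ran from 146 to 2701 bp with a median of 253 bp, and 50% of the peaks lay between 184 and 385 bp. The 297 peaks covered 108 kb, or 0.716% of the chromosome, whose length was taken as 15141487 bp from the end of its last peak. Scores ran from 1.51 to 45.5 with a median of 5.25 (interquartile range 3.75 to 9.13). On the other autosomes (I, III, IV and V, 1389 peaks) the median width was 254 bp and the median score 5.65 (3.75 to 9.45). On X (415 peaks) the medians were 290 bp and 6.49.

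II did not differ detectably from the other autosomes in the level of its scores. The share of peaks above the median score of all nuclear peaks was 45.1% on II (134 of 297) and 48.9% on the other autosomes (679 of 1389), a difference of -3.77 percentage points (95% interval -9.92 to 2.49, two-sided Fisher's exact p = 0.25, Benjamini-Hochberg adjusted p = 0.666 over 8 tests). II supplied 10 of the 100 highest-scoring nuclear peaks and 27 of the 200 highest. Its best peak scored 45.5 and stood 38th among the nuclear peaks, against a best autosomal score of 60.1. Peaks are not replicates and neighbours are not independent, so this and the other tests over peaks describe this list, and their intervals cover counting error only.

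By number, II held 0.935 times the peaks that its share of the genome length would give (14.1% of peaks, exact 95% interval 12.7 to 15.7%, on 15.1% of the length, two-sided exact binomial p = 0.212, adjusted p = 0.666 over 8 tests). This corresponds to 19.6 peaks per Mb, while the other chromosomes ranged from 15.4 on V to 27.2 on III. Among the better-scoring 50% of the list the ratio was 0.843 (exact binomial p = 0.0313), and with peaks within 1000 bp merged it was 0.883 (exact binomial p = 0.0479), both unadjusted. These ratios are taken over all nuclear chromosomes, X included, unlike the comparisons with the other autosomes. X held 48 of the 100 highest-scoring nuclear peaks and 23.5 peaks per Mb. A ratio over the autosomes alone was not computed.

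Of the peaks on II, 157 (52.9%) were also found in a replicate. Divided by replicate, 47 (15.8%) overlapped a peak of both replicates by 1 bp or more, 58 (19.5%) a peak of replicate 1 alone, 52 (17.5%) a peak of replicate 2 alone and 140 (47.1%) a peak of neither. Over all nuclear peaks, 18.1% were found in both replicates, 35.8% in replicate 1 and 33.2% in replicate 2. The members' shares were near these values, at 35.4% for replicate 1 (105 of 297) and 33.3% for replicate 2 (99 of 297). Against the other autosomes the share found in both differed by -1.24 percentage points (15.8% against 17.1%, interval -5.49 to 3.72, Fisher's exact p = 0.669, adjusted p = 0.95). The share found in replicate 1 differed by 1.59 points (interval -4.21 to 7.69, Fisher's exact p = 0.637, adjusted p = 0.95), and the share found in replicate 2 by -0.22 points (interval -5.92 to 5.84, Fisher's exact p = 1, adjusted p = 1). The level of support depends on the overlap rule. With overlap of at least 50% of both peaks, 9.76% of the 297 were found in both, 21.9% in replicate 1 and 20.9% in replicate 2. On the other autosomes these shares were 10.4%, 22.8% and 21.8%.

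Presence in the replicates went with score. Only 1 of the 75 lowest-scoring peaks on II (scores 1.51 to 3.75) was found in both replicates and 21 in at least 1. Of the 74 highest-scoring (9.18 to 45.5), 39 were found in both and 63 in at least 1. The 47 peaks of both replicates had medians of 18.3 in score and 598 bp in width, and the 140 peaks of neither had medians of 4.17 and 200.5 bp. Peaks of replicate 1 alone and of replicate 2 alone lay between, with median scores of 6.1 and 5.3. The pattern was alike on the other autosomes, with medians of 15.1 and 580 bp for peaks of both replicates and 4.34 and 203 bp for peaks of neither. The series-level list may have been made from the same reads as the replicate lists, which the sources used here do not state, so this relation is given as a description with no test. Score and width rose together across the 297 peaks (Spearman's rho 0.525), as they did across the peaks of the other autosomes (0.567). Both values describe peaks within 1 list.

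**Figure D1:**
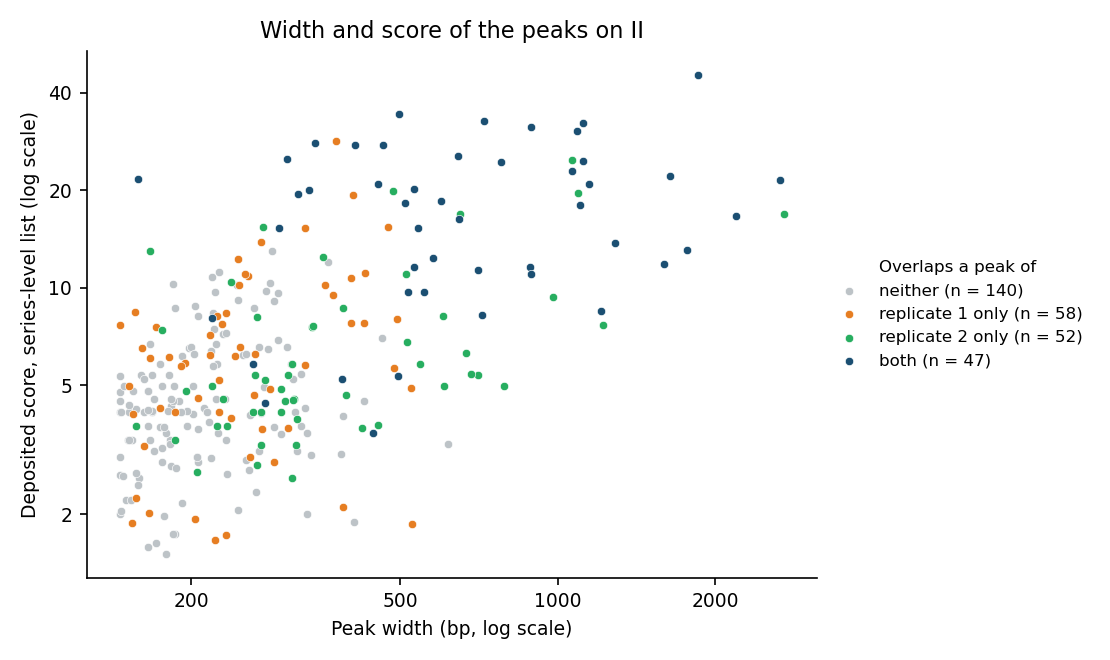
Width (bp, log scale) against deposited score (log scale) of the 297 series-level peaks on II, 1 point a peak, coloured by the replicates in which a peak overlapped it. The 47 peaks of both replicates lie toward the upper right, around medians of 598 bp and 18.3, and the 140 peaks of neither toward the lower left.

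The highest-scoring peak on II lay at II:11758488-11760339 (WormBase WS220 coordinates, as throughout). It was 1852 bp wide with a series-level score of 45.5, and the replicate peaks over it scored 1888 (replicate 1) and 875 (replicate 2). Each replicate had 1 wide peak here, II:11757297-11761571 in replicate 1 and II:11757698-11761130 in replicate 2. The series-level list divided the place into neighbouring peaks with scores of 8.46, 45.5 and 8.24, and a last one of 2.25 that only the replicate 1 peak reached. The next were the peak at II:5346407-5346903 (497 bp, score 34.3) and the peak at II:10033415-10034137 (723 bp, score 32.8). They were narrower than the first and stood lower in the replicate lists, at ranks 214 and 227 of 882 in replicate 1 and 277 and 257 of 817 in replicate 2, where the first stood at 27 and 109. Only 434 bp beyond the last of them lay a further peak, II:10034572-10035036, with a score of 27.6.

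Ranks 4 to 6 belonged to a single crowded place near 13.82 Mb, described further on. Rank 7, at II:5543424-5543800 (score 28.4), was the only one of the 12 highest-scoring peaks missing from a replicate: it scored 439 in replicate 1, at rank 115, and overlapped no replicate 2 peak. The peaks at II:10563306-10563649 (28.0), II:6588853-6589263 (27.6), II:9404701-9405346 (25.5) and II:12550897-12551200 (25.03) completed the 12. The order within a replicate was often very different from the series-level order. The peak at 9404701 scored 91.7 in replicate 1 (rank 476) and 665 in replicate 2 (rank 141), whereas the peak at 6588853 scored 296 in replicate 1 (rank 166) and 69.0 in replicate 2 (rank 603).

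The widest peaks formed a partly different set. The only member of both sets of named peaks was the one at 11758488. The pair at II:8288334-8290991 (2658 bp, score 21.5) and II:8291061-8292695 (1635 bp, score 22.2) was 1 block in both replicates, at II:8288309-8292827 in replicate 1 and II:8288319-8292806 in replicate 2. That block had the highest score on II in each replicate, 2148 (rank 21 of 882) and 3100 (rank 3 of 817), although its series-level pieces ranked only 19th and 17th on II. The peak at II:5144571-5146756 (2186 bp, score 16.7) followed the same course, with scores of 816 and 1510 in replicates 1 and 2. Further wide peaks lay at II:12844253-12846017 (1765 bp, score 13.1), II:6506188-6507783 (1596 bp, 11.9) and II:13598577-13599862 (1286 bp, 13.8). On the other autosomes, leaving out peaks wider than 1500 bp took the number found in both from 237 of 1389 to 192 of 1337. Wide peaks were thus mostly found in both replicates there too. On II the number went from 47 of 297 to 41 of 290. Of the 7 peaks of II wider than 1500 bp, 6 were found in both replicates.

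The seventh, the widest peak on II, was absent from replicate 1. It lay at II:4642352-4645052, measured 2701 bp and scored 16.9, and a neighbour of 1095 bp ending 94 bp before it scored 19.6. Replicate 2 had 3 strong peaks over this 3.89 kb, II:4641213-4642307, II:4642326-4643807 and II:4643860-4645064, with scores of 1682, 1728 and 1461 (ranks 53, 51 and 64 of 817). The nearest replicate 1 peak was 56.3 kb away. The place was thus among the highest-scoring of II in replicate 2 and without a peak in replicate 1.

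The replicates differed in this way more than once. Among the 12 highest-scoring peaks on II in replicate 1, chosen after the values were seen, 11 overlapped a replicate 2 peak, whereas 7 of the 12 highest of replicate 2 overlapped a replicate 1 peak. Besides the 3 peaks at 4.64 Mb, the 5 without a partner were those at II:891315-892095 (score 933, rank 99) and at II:9632452-9633105 (755, rank 129). Of the 12 in replicate 1, 6 were the wide neighbours of 1 group at II:13817601-13828533, described further on, and all 6 were shared. The 3 peaks at 4.64 Mb were also neighbours, so 11 against 7 counts peaks and not separate places. Over the whole of II, 45 of 114 replicate 1 peaks (39.5%) overlapped a replicate 2 peak and 44 of 122 replicate 2 peaks (36.1%) a replicate 1 peak. The corresponding shares on the other autosomes were 48.2% (271 of 562; difference -8.75 points, interval -18.2 to 1.30, Fisher's exact p = 0.0996, adjusted p = 0.129 over both lists) and 43.9% (240 of 547; difference -7.81 points, interval -16.8 to 1.92, Fisher's exact p = 0.129, adjusted p = 0.129). Without the most crowded place on II, described further on, the replicate 2 share was 45.4% (44 of 97). That removal raises it by construction, since none of the 25 peaks taken out was shared: 24 lay within the crowded group and 1 just beyond its end, at II:9825078-9825239.

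The 47 members found in both replicates are described here without a test, since overlap with the same series-level peak keeps the replicate peaks close by selection. The midpoints of the replicate peaks over the 47 shared members lay a median of 27.5 bp apart, and within 100 bp for 37 of them (largest distance, 627 bp). By score, the highest replicate peak over a member stood at a median of the top 23.2% of the replicate 1 list and the top 32.8% of the replicate 2 list. Spearman's rho between the 2 replicates' scores was 0.414 across these 47, some of which share a replicate peak.

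**Figure D2:**
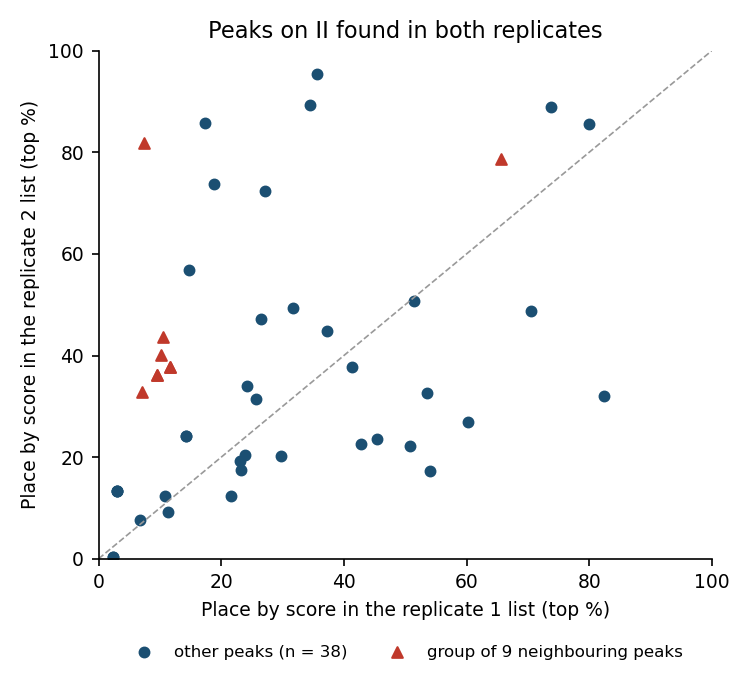
Place by score in the replicate 1 list (x axis, top percent of 882 peaks) and in the replicate 2 list (y axis, top percent of 817 peaks) for the 47 peaks on II found in both, using the highest-scoring overlapping replicate peak; the dashed line marks equal places and some points coincide because neighbours share a replicate peak. In 29 of the 47 the place was better in replicate 1 and in 18 it was better in replicate 2, and the group of 9 neighbours (triangles) lies wholly on the replicate 1 side.

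Some peaks of each replicate had no counterpart in the series-level list, 18 of 114 in replicate 1 and 23 of 122 in replicate 2. Most scored close to the lowest reported score of 50.0, with medians of 55.0 and 59.5. The highest in replicate 1 were at II:12521094-12521949 (score 113), II:17205-17652 (91.4) and II:14249907-14250649 (65.1). In replicate 2 the peak at II:3994640-3994879 had a score of 346, and a replicate 1 peak overlapped it at II:3994653-3994859 (score 54.55), so this place was in both replicate lists and not in the series-level list. The others named by rank, at II:2716823-2717021 and II:3166588-3166964, scored 134 and 132. Further places were also in both replicate lists and not in the series-level list. II:3290577-3290870 of replicate 2 (score 108) overlapped II:3290594-3290836 of replicate 1 (58.0). II:6505452-6506149 of replicate 2 (101) overlapped II:6505545-6505810 of replicate 1 (52.0). The share of replicate peaks recovered in the series-level list, 84.2% and 81.1% on II, was 84.9% and 82.1% on the other autosomes. In the opposite direction, the highest series-level scores with no replicate peak were 13.0 at II:11960616-11960900, 12.05 at II:5660978-5661342 and 11.2 at II:8569353-8569578.

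Along the chromosome, peaks ran from II:88-245 at the left end to II:15141103-15141487 at the right. The first scored 21.8 and was found in both replicates, whose own peaks there began at the first base of the chromosome. The last scored 3.08 and was found in neither. Windows of 1 Mb held between 8 and 32 peaks with a median of 18, leaving out the last, partly filled window. The fewest lay at 1 to 2 Mb (8 peaks, median score 3.95, none found in both replicates) and the most at 9 to 10 Mb and at 14 to 15 Mb (32 each). The longest stretch without a peak was 278 kb, from 7200203 to 7478690.

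No preference for the chromosome's middle was detected. The middle 33.3% of II, only a section of the central part that on worm autosomes is known for low recombination and many conserved genes, held 102 of the 297 midpoints (34.3%, exact 95% interval 29.0 to 40.05%, two-sided exact binomial p = 0.712 against its share of the length, adjusted p = 0.95 over 8 tests). Without the group of 23 neighbours near 9.82 Mb, an alternative chosen after the values were seen, the share was 28.8% (79 of 274, exact binomial p = 0.124), which lowers it by construction. The central 50% of II, with all peaks kept, held 148 of the 297 midpoints (49.8%).

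The 47 peaks found in both replicates were unevenly spread over the windows. The window at 13 to 14 Mb held 13 of the 47, out of 24 peaks, and had the largest covered length, 13.9 kb. Of these 13, 9 belonged to the group near 13.82 Mb, without which 4 of 15 peaks in the window were found in both. The window at 5 to 6 Mb followed with 6 of 25, and that at 14 to 15 Mb with 6 of 32. None was found in both at 1 to 2, 3 to 4 or 7 to 8 Mb, or beyond 15 Mb. The replicate lists had their largest numbers in different windows, replicate 1 at 13 to 14 Mb with 15 peaks and replicate 2 at 9 to 10 Mb with 29, where replicate 1 had 6.

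**Figure D3:**
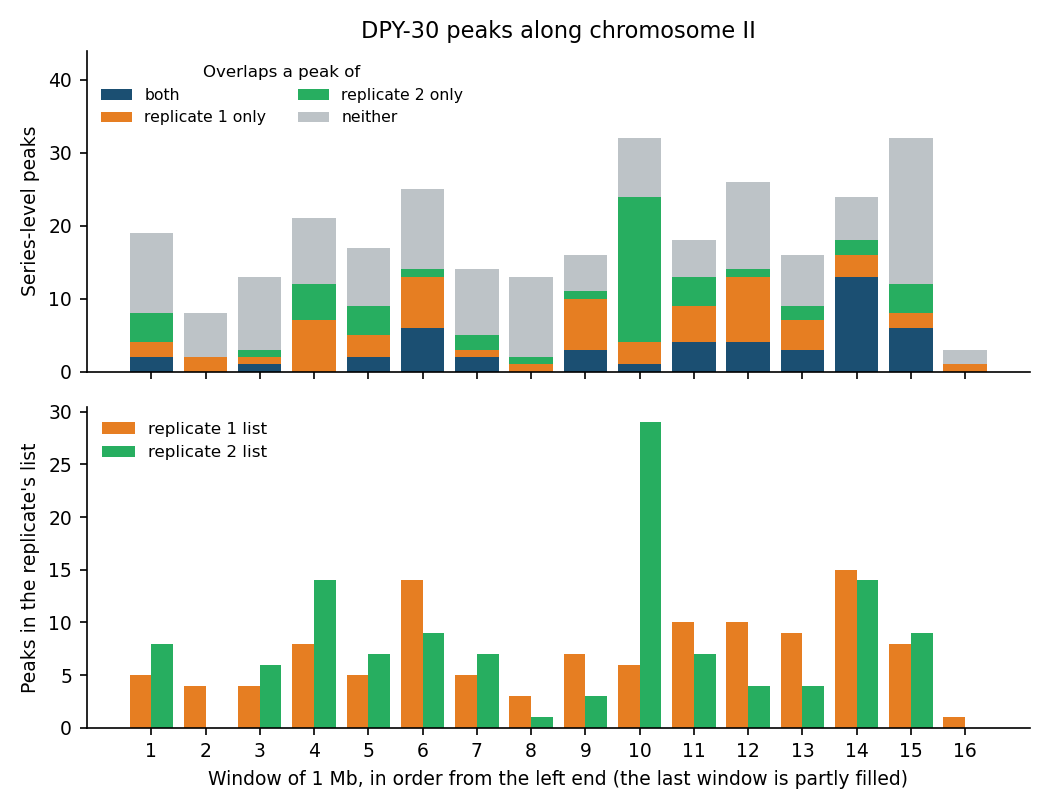
Number of peaks in windows of 1 Mb along chromosome II, numbered from the left end. Upper panel: series-level peaks, coloured by the replicates in which a peak overlapped them; lower panel: peaks of the replicate 1 and replicate 2 lists. Windows 10 and 15 hold 32 series-level peaks each, and window 10 holds 29 replicate 2 peaks against 6 of replicate 1.

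Spacing was uneven. The median gap between neighbours was 25.9 kb, yet 81 of the 296 gaps (27.4%) were 1000 bp or less and the smallest was 47 bp. Joining peaks no more than 5000 bp apart left 199 runs, 157 of them single peaks. A single run reached 10 peaks, and 4 reached 7, a size chosen after the values were seen. These 4 groups together held 47 peaks and differed from each other in width, score and replicate. The remaining 250 peaks were found in both replicates in 15.2% of cases, in replicate 1 in 37.2% and in replicate 2 in 26%. Taking the groups out lowers the replicate 2 share by construction. In the largest of them, 19 of the 23 members were found in replicate 2 and none in replicate 1.

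The largest group spanned 16.1 kb at II:9808299-9824421 and held 23 series-level peaks. Their scores were low, 2.59 to 8.67 with a median of 4.55, and their widths were 154 to 1221 bp with a median of 296 bp. Peaks covered 54.6% of the group, with gaps of at most 751 bp. Replicate 2 had 24 peaks within it, 19.7% of all its peaks on II, with scores of 50.7 to 393 and a median of 96.5, against a median of 109 for its peaks on II as a whole. Replicate 1 had 0 peaks, and its nearest lay 209 kb away. Thus 19 of the 23 members were found in replicate 2 and none in replicate 1.

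The group at II:13817601-13828533 showed the opposite: all 9 of its members were found in both replicates. They made up 19.1% of the 47 such members on II. The group held 8 replicate 1 peaks and 7 replicate 2 peaks, so some members shared a replicate peak. The member at II:13825945-13826206 reached only the right ends of its replicate peaks, at 13826001 in replicate 1 and 13825961 in replicate 2. Of the 9, 6 were 889 to 1146 bp wide and scored 18.0 to 32.2, ranking 4th, 5th, 6th, 16th, 20th and 30th on II, and the other 3 were 262 to 445 bp wide and scored 3.56 to 5.81. Each replicate had 6 peaks wider than 900 bp in the group, called wide here, at near-regular distances. Narrower replicate peaks at the right end of the group were left out of the distances. The midpoints of neighbouring wide peaks lay 1587 to 1928 bp apart in replicate 1 (median 1783 bp) and 1628 to 1905 bp apart in replicate 2 (median 1817 bp). Their widths were 1287 to 1475 bp in replicate 1 and 933 to 1314 bp in replicate 2.

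The score of that group relative to its list differed between the replicates. In replicate 1 the 6 wide peaks scored 490 to 743, ranks 63 to 103 of 882, far above the median of 91.9 for II. In replicate 2 they scored 60.4 to 221, ranks 268 to 668 of 817, and the median for II was 109. Only the first of them, at 60.4, lay below that median, and the others scored 138 to 221. A pair of wide peaks not far to the right, at 13984812 and 13985518, was also found in both replicates, with series-level scores of 18.5 and 24.6. By place, that pair stood at the top 23.2% and 11.3% of the replicate 1 list and the top 17.5% and 9.18% of the replicate 2 list.

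The other groups were smaller in span, and none of their members was found in both replicates. At II:3940749-3946342 lay 7 peaks with scores of 1.73 to 9.37, of which 3 were found in replicate 1 and 3 others in replicate 2, and the replicates had 2 and 6 peaks of their own there. At II:14323972-14331318 lay 8 peaks with scores of 2.94 to 6.56, of which 3 were found in replicate 2 and none in replicate 1.

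**Figure D4:**
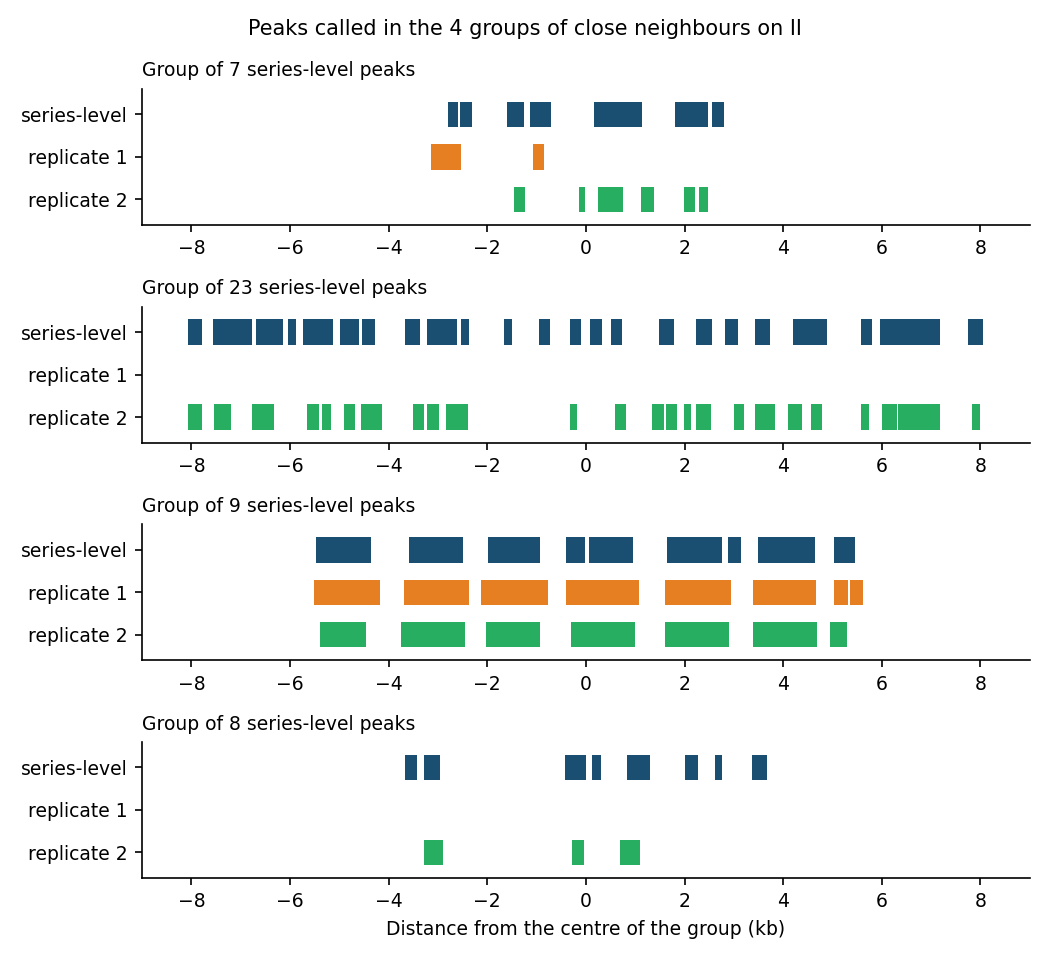
Peaks called in the 4 groups of at least 7 series-level peaks on II, from left to right along the chromosome ordered top to bottom; the x axis gives the distance from the centre of each group in kb and each bar is 1 peak. Replicate 1 has 0 peaks in the groups of 23 and 8, while the group of 9 shows 6 wide peaks at like positions in both replicates.

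The stretch at 14 to 15 Mb, singled out for its number of peaks, held 32 of the 297 (10.8%), against an average of 19.6 per Mb on II. Its crowding came partly from the group of 8 just described, without which 24 peaks were left. Outside that group the peaks were spread from 14042869 to 14993161. The median score was 4.92 against 5.35 for the rest of II and the upper quartile 9.54 against 8.82, and none of the 12 highest-scoring peaks of II lay there. Of the 32, 6 were found in both replicates, 2 in replicate 1 alone, 4 in replicate 2 alone and 20 (62.5%) in neither, while 45.3% of the 265 other peaks on II were found in neither.

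Neither replicate alone differed detectably between this stretch and the rest of II. Replicate 1 supported 8 of 32 peaks there (25%) and 97 of 265 elsewhere (36.6%), a difference of -11.6 points (interval -24.8 to 6.39, Fisher's exact p = 0.242, adjusted p = 0.666 over 8 tests). Replicate 2 supported 10 of 32 (31.3%) and 89 of 265 (33.6%), a difference of -2.33 points (interval -16.9 to 15.8, Fisher's exact p = 0.845, adjusted p = 0.966). With 32 peaks, these intervals are wide. With overlap of at least 50% of both peaks, each replicate supported 4 of the 32 (12.5%). Elsewhere on II, replicate 1 then supported 61 of 265 and replicate 2 supported 58 of 265.

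Within the stretch, support by score is given as a description, since the limit of 10 was chosen after the scores and the support were seen. All 8 that scored above 10 were found in a replicate and 6 of them in both. Of the 24 that scored 10 or less, 4 were found in a replicate, and these 4 scored 3.69 to 4.89. In the rest of II the figures were 51 of 58 (87.9%) above 10 and 94 of 207 (45.4%) at or below it. There, 31 of the 58 (53.4%) and 10 of the 207 (4.83%) were found in both, the latter against 0 of the 24 in the stretch. The strongest in the stretch was at II:14405004-14405783 (780 bp, series-level score 24.4), with scores of 387 in replicate 1 and 98.2 in replicate 2. The peak at II:14154258-14154664 (19.4) was found in replicate 1 alone. The peaks at II:14804302-14804843 (15.3) and II:14561648-14561941 (15.3) were found in both, the latter with replicate scores of only 62.1 and 58.0. A neighbouring pair at II:14337522-14338099 (12.3) and II:14338319-14339022 (11.4) lay 6.20 kb beyond the group of 8 and formed 1 block in both replicates, with scores of 396 in replicate 1 and 366 in replicate 2.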

How the data were processed

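The values came from 3 deposited peak lists, whose coordinates are those of WormBase WS220, per the file headers. The source column in the authors' files names MACS in the replicate lists and MACS v2 in the series-level one, and BWA and the ce10 build are named in the submitters' processing notes. The score of each peak is the authors' deposited value. The control, the threshold, any pooling of replicates and the depth are not given in the sources used here. Peaks are named by position, since no genes or sequences of that build were used here.

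Peaks were compared by overlap of 1 bp or more, with Python 3.11.15, numpy 2.4.6, pandas 2.3.3 and scipy 1.17.1 (figures, matplotlib 3.10.9). Shares were compared with two-sided Fisher's exact tests and Newcombe 95% intervals, and numbers with two-sided exact binomial tests and Clopper-Pearson intervals, adjusted by Benjamini-Hochberg over 8 tests; the threshold was 0.05. The overlap rule was checked on simulated lists. The tests were checked on simulated independent draws, which do not copy the crowding of the real peaks, so their error rates under crowding were not checked. Chromosome lengths were taken from the last peak end over the 3 lists. The 2 mitochondrial peaks were left out. Named peaks were the 12 highest-scoring, the 8 widest, the 3 highest with no replicate peak, the 6 highest at 14 to 15 Mb, the 3 highest of each replicate with no series-level peak, and the first and last. Others named were chosen after their values were seen. The members, lists and tests were chosen with earlier results of these data known. Alternatives changed the overlap rule, the score limit, merging, wide peaks, the comparison group, the list and the crowded places.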

Additional observations from a re-analysis of the deposited data

How the results depend on the processing

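None of the 8 tested results passed the threshold, and 40 of 60 alternatives left both direction and call as they were. The ratio of peak number passed it in 3 alternatives, unadjusted: 0.843 in the better-scoring 50% (exact binomial p = 0.0313), 0.883 with peaks within 1000 bp merged (exact binomial p = 0.0479) and 0.873 without the group of 23 (exact binomial p = 0.0142), a removal of peaks of II, chosen after seeing the data, that lowers it by construction. That ratio is taken over all nuclear chromosomes, X included. The direction turned in 17 alternatives, none past the threshold (lowest exact p = 0.124). For the share found in both replicates the difference became 0.43 points in the better-scoring 50% and 0.091 without the group of 23. For replicate 1 it became -0.86 with 50% reciprocal overlap, -1.81 after merging and -0.51 with X added. For replicate 2 it became 0.76 without wide peaks, 0.18 with X added and 0.036 without 14 to 15 Mb. The ratio in the middle 33.3% of II became 0.972 after merging, 0.997 for the central 50% and 0.867 without the group of 23. At 14 to 15 Mb the replicate 1 difference became 18.3 points in the better-scoring 50%, and the replicate 2 difference 6.58 there, 9.38 after merging and 2.32 without the group of 23. The cause of these turns was not tested.

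A replicate was left out by using the other's list or support alone, which also exchanges MACS v2 for MACS where a list was replaced. The difference in support then ran from -0.22 to 1.59 points, that in high scores was -1.36 in both, the ratio of peak number ran from 0.855 to 0.987 and that of the middle 33.3% from 0.974 to 1.23. No paired analysis was possible because each comparison is between peaks of a list and the input libraries were not analysed here.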

Other observations

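Some series-level scores were shared by many peaks. The 297 peaks on II had 223 distinct scores, and a score of exactly 4.15 was shared by 13 peaks, 4.97 by 7 and 3.38 by 6. The share of peaks found in neither replicate was 47.1% on II, 48.0 to 53.7% on the other autosomes and 48.4% on X; these shares were not tested against each other.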
